A study of Arabidopsis thaliana with 4 samples.

Results

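Shared regions that cover the starts of several genes were described here: stretches of accessible chromatin called in every library of Arabidopsis thaliana Col-0 root tips and holding the start intervals of at least 2 genes. Peaks of the 4 libraries were merged where they overlapped by 1 bp, and a merged region wider than 20 bp and narrower than 10000 bp was kept when all 4 libraries had called it. Outside the pericentromeres, 2083 of the 18340 shared regions (11.4%) covered several starts, 9199 covered 1 start and 5122 covered none, while 1936 lay in the pericentromeres. The members held the starts of 4279 genes, 13.1% of the 32548 genes with a position. Nuclei came from 5-mm tips of 10-day-old wild-type Col-0 plants. The stress group (2 libraries) was grown on half-strength MS medium with sorbitol, an osmotic stress, and the control group (2 libraries) on the same medium without it. How many plants or pools a library held is not given in the sources used here, so that p-values measure only the spread between these libraries. RNA molecules and Tn5 cut sites were counted in the same nuclei by single-nucleus multiome sequencing. The comparison of the groups asks how the accessibility of these regions and the RNA of the genes that start in them differed under osmotic stress.

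Most genes are preceded by a stretch free of nucleosomes, where transcription factors and RNA polymerase II assemble, and Tn5 cuts most readily there. In a compact plant genome the stretch can serve genes on both sides. Back-to-back genes, one on the minus strand and the other on the plus strand, are called divergent, and the sequence between their starts is a bidirectional promoter when both are transcribed.

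Of the 2083 members, 1973 covered 2 starts, 105 covered 3 and 5 covered 4. Divergent pairs made up 1580 of the 1973 regions with 2 starts (80.1%), pairs that face each other 248 (12.6%) and pairs on the same strand 145 (7.35%). In 1483 members both genes were protein-coding, and 1334 of the 1580 divergent pairs had 2 coding genes. A tRNA gene start lay in 187 members (8.98%). The regions were 920 bp wide at the median (quartiles 890 and 939 bp), against 902 bp for regions with 1 start. The centre of a divergent region lay at a median of 56.5 bp from the midpoint between its starts. The annotation sets some of these memberships, since a gene with several annotated starts has a start interval that spans them. When the whole interval had to lie at least 50 bp inside the region, 1630 of the 2083 members remained.

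**Figure D1:**
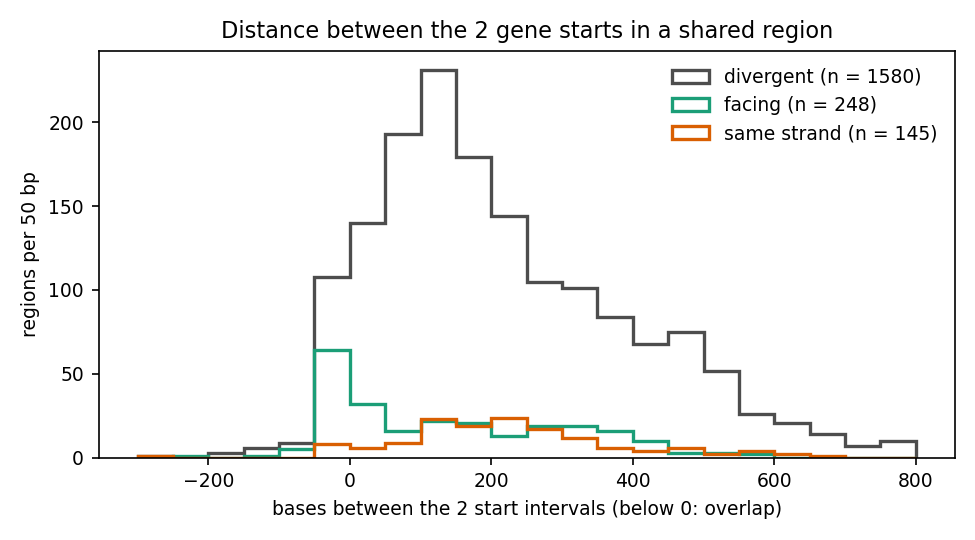
Number of 2-start regions by the bases between the start intervals of their genes, in classes of 50 bp, for divergent (n = 1580), facing (n = 248) and same-strand (n = 145) pairs. Values below 0 mean overlapping intervals, and 5 regions outside −300 to 800 bp are not drawn. Divergent starts were most often close, with a median of 168 bp between them.

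The gap between the starts of a divergent pair had a median of 168 bp (quartiles 83 and 328 bp), and 992 of 1580 pairs were separated by 0 to 300 bp. Facing pairs had a median gap of 108.5 bp, with overlapping intervals in 72 of 248 regions. Same-strand pairs had a median gap of 214 bp.

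For the divergent pairs on which the results below turn, the bases between the annotated starts of both genes are shown, from TAIR10.1 of RefSeq, read 5′ to 3′ on the plus strand, so that the minus-strand gene starts at the left end and the plus-strand gene at the right end. Capitals mark matches, on either strand, to the site II element (TGGGCC or TGGGCT), the telo-box (AAACCCTA), the TATA box (TATAAA), the G-box (CACGTG), the ABA-responsive ABRE (ACGTGTC) and the W-box (TTGACC or TTGACT). G-box and ABRE matches can overlap. The first set holds 5 pairs in which the RNA of 1 gene of photosynthesis or the chloroplast was called higher under stress, chosen after their values were seen. In CLPR1/AT1G49975 both genes belong to the chloroplast, and only AT1G49975 was called.
PSAO/AT1G08390, chr1:2641935-2642071: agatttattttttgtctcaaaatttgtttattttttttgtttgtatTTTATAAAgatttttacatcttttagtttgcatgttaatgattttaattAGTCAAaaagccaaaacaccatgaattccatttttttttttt
PSBTN/RBL, chr3:7377227-7377390: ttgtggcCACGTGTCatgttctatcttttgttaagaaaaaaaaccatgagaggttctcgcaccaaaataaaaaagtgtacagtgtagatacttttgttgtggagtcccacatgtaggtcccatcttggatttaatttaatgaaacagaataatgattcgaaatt
ATK1/PSBQA, chr4:11334169-11334351: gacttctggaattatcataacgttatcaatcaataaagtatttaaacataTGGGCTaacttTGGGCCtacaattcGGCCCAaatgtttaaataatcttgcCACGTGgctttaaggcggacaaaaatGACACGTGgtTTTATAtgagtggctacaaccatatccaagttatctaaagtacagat
CLPR1/AT1G49975, chr1:18504655-18504756: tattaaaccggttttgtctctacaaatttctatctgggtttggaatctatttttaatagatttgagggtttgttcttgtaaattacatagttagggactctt
EXO70B2/SLP1, chr1:2152542-2152797: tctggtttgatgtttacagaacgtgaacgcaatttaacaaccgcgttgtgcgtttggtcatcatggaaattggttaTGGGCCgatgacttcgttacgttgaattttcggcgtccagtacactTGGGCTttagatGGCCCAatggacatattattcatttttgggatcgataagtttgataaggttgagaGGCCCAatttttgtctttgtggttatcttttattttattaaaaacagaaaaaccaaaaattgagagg
The 164 bp between PSBTN and RBL hold 1 G-box that overlaps 1 ABRE, with 7 bases between the G-box and the PSBTN start. The 183 bp between ATK1 and PSBQA hold 3 site II elements nearer to ATK1. Nearer to PSBQA they hold 2 G-boxes, 1 of them overlapping an ABRE, and 1 TATA box match. The 256 bp between EXO70B2 and SLP1 hold 4 site II elements. The 137 bp between PSAO and AT1G08390 hold 2 overlapping TATA box matches and 1 W-box, and the 102 bp between CLPR1 and AT1G49975 hold none of the 6 motifs.

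The next set holds 2 pairs in which 1 gene fell under stress, also chosen after their values were seen, and the pair AT1G17090/HBP1, in which both genes rose.
AT3G17680/CNGC19, chr3:6044763-6045001: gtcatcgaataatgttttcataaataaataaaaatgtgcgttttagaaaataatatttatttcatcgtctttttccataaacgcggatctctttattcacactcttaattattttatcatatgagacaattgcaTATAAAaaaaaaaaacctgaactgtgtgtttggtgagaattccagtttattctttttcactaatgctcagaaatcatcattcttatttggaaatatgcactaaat
AT4G29520/AT4G29530, chr4:14495790-14495959: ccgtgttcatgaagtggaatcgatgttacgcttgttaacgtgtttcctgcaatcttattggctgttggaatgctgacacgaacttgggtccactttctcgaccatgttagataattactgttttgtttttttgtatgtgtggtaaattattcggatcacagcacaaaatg
AT1G17090/HBP1, chr1:5844368-5844645: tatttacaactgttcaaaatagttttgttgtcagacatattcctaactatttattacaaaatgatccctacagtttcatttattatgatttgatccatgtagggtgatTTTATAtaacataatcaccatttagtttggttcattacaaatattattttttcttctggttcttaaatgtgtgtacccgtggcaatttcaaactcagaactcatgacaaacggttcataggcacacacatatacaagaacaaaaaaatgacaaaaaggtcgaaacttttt
The stretch beside CNGC19 holds 1 TATA box match, with 99 bases between it and the CNGC19 start. The 170 bp between AT4G29520 and AT4G29530 hold none of the 6 motifs. The 278 bp between AT1G17090 and HBP1 hold 1 TATA box match and no G-box or ABRE. These matches are descriptions of letters and not measured binding.

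Over all genes of divergent coding pairs sharing a region, 48.4% of 2667 promoters (250 bases before to 50 after the start) held a site II element, against 32.5% of 8654 coding genes in regions with 1 start and 21.7% of all 27444 coding genes. Site II elements are known from genes of the cell cycle and of protein synthesis in plants. The telo-box, known from ribosomal protein promoters, stood in 12.6% of the pair promoters, against 4.41% for regions with 1 start and 6.22% of all. The TATA box stood in 42.7% of the pair promoters, 50.2% for regions with 1 start and 52.1% of all. In the central 300 bp of the regions it was hardly different, in 40% of divergent members, 41.4% of regions with 1 start and 41.9% of all shared regions. In the 3 promoter sets the G-box stood in 13.8%, 10.2% and 7.68%, and the ABRE in 8.1%, 6.07% and 4.33%. These 2 motifs also differed less in the central 300 bp. There the G-box stood in 14.8% of divergent members, 13.1% of regions with 1 start and 13.5% of all shared regions. The ABRE stood there in 8.8%, 7.51% and 7.42%. The W-box hardly differed between the promoter sets, at 33.7%, 34.5% and 32.4%. Base composition moved with these shares, since G and C made up 36.3% of the pair promoters, 32.3% of the promoters in regions with 1 start and 32.2% of all, and its part was not tested. The 2 promoters of a close pair overlap and are not independent.

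The libraries differed in depth and in the nuclei they held. Stress libraries kept 6564 and 5575 nuclei, and control libraries 1480 and 4767, with 35252513 and 31118001 peak counts in stress libraries and 11192073 and 28111157 in control libraries. RNA counts were 31717321 and 26852957 in stress libraries and 7982634 and 20669871 in control libraries. Control replicate 1 kept 43.1% of its barcodes, against 71.9% to 84.7% in the others. Of the nuclei, the share in a cluster with 3 of 9 stem cell niche markers was 9.25% and 8.41% in stress libraries, against 22.6% and 7.32% in control libraries. The share in a cluster with trichoblast markers was 11.3% and 10.7% in stress libraries, against 3.99% and 1.74% in control libraries. All 10 trichoblast and all 5 division markers marked a cluster each. Of 18 clusters, 9 took over 90% of their nuclei from 1 group, and these held 13736 of the nuclei (74.7%). Counts were summed over all nuclei of a library, and in such sums fewer cells of a type and less RNA per cell cannot be told apart. The part of these differences in the results that follow was not tested.

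Regions covering several starts were more accessible per covered length than regions with 1 start, in every library alike. The median member had 66.99 and 66.5 cut-site CPM (counts per 1000000) per covered kb in stress libraries, against 67.1 and 66.4 in control libraries. For regions with 1 start the medians were 59.9 and 60.0 in stress libraries, against 60.3 and 60.0 in control libraries. The median of members was thus 1.12 and 1.11 times that of regions with 1 start in stress libraries and 1.11 times in both control libraries. The mean log2 ratio was 0.15 ± 0.01 (SD, n = 4 libraries), and the two-sided exact permutation test gave p = 0.125, the smallest that 4 libraries allow. Members varied widely among themselves, and their mean over the libraries ran from 18.3 to 215 CPM per kb (median 66.8). The median member had a cut site in 12.8% and 13.2% of nuclei in stress libraries, against 18.4% and 13.8% in control libraries, and control replicate 1 had the highest median peak count per nucleus.

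**Figure D2:**
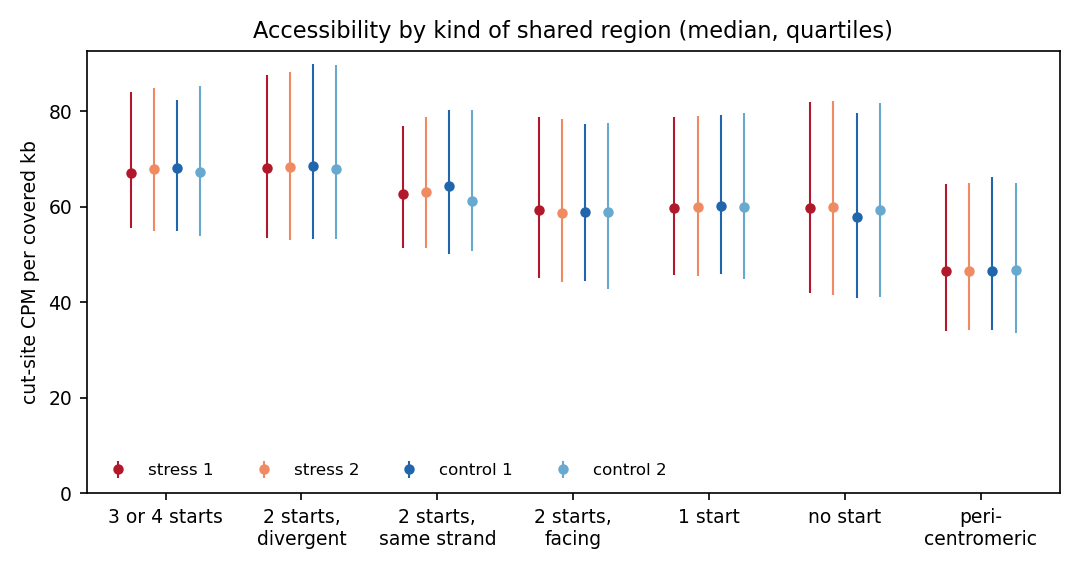
Cut-site CPM per covered kb (points, median; lines, quartiles over regions) for each library in regions with 3 or 4 starts (n = 110), 2 divergent (n = 1580), same-strand (n = 145) or facing (n = 248) starts, 1 start (n = 9199), no start (n = 5122), and in pericentromeres (n = 1936). The 4 libraries lie close together within each kind, and facing pairs lie near the regions with 1 start.

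Orientation and distance went with the level. Divergent members had medians of 68.2 and 68.4 CPM per kb in stress libraries, against 68.5 and 67.9 in control libraries. Facing members stood at 59.3 and 58.8 in stress libraries, against 59.0 and 58.9 in control libraries, and so at 0.859 to 0.869 times the divergent level (exact permutation test over 4 libraries, two-sided, p = 0.125). Among divergent members the median was 60.4 and 60.6 in stress libraries, against 60.7 and 60.4 in control libraries, where 0 to 150 bp lay between the starts (n = 571). Where more than 300 bp lay between them (n = 459), it was 79.6 and 78.2 in stress libraries, against 80.7 and 80.9 in control libraries. Members with at least 2 genes measured in RNA (n = 1260) had medians of 69.7 and 70.8 in stress libraries, against 70.1 in both control libraries. Members with no such gene (n = 97) had 53.9 and 51.7 in stress libraries, against 52.2 and 53.6 in control libraries. Divergent members with a site II element in their central 300 bp (n = 836) had medians of 72.9 and 72.6 in stress libraries, against 74.5 and 73.8 in control libraries. Those without one (n = 744) had 63.1 and 62.8 in stress libraries, against 61.4 and 62.2 in control libraries. Members with a telo-box there (n = 181) were lower, at 56.7 and 57.6 in stress libraries, against 57.9 and 58.3 in control libraries.

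The 5 most accessible members by mean CPM per covered kb lay on chromosomes 1, 2, 3 and 5. The region of AT2G44660, an ALG6/ALG8 family glycosyltransferase gene, and the long noncoding gene AT2G09535 (chr2:18422669-18423598) had 219 and 220.4 CPM per kb in stress libraries, against 202 and 217 in control libraries. CSY2, which encodes a citrate synthase, and AT3G58760 share a region at chr3:21727500-21728409 with only 6 bp between their starts, and it had 204 CPM per kb in both stress libraries, against 217 and 213 in control libraries. The region of MTHSC70-2, a mitochondrial heat shock protein 70 gene, and the spliceosomal RNA gene U2.5 (chr5:2974746-2975691) had 197 and 195 in stress libraries, against 221 and 205 in control libraries. Regions of AT2G47844/AT2G47850/Tic20-II (chr2:19594861-19595821) and of BIM2/MGP3/AT1G69000 (chr1:25940978-25941867) followed, with 170 to 183 CPM per kb over the 4 libraries. None of these 5 regions was called between the groups (edgeR, adjusted p from 0.54 to 0.93).

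The 5 members with 4 starts held mostly small noncoding RNA genes. Of their 20 start intervals, 10 belonged to snoRNA genes and 1 to a miRNA gene, MIR8176, and these genes had at most 1 RNA count in any library. The region of AT4G22320, MIR8176, AT4G07070 and AT4G07075 (chr4:11794358-11795263) had 82.5 and 89.4 CPM in stress libraries, against 82.9 and 79.6 in control libraries. The region of SNL2, a SIN3-like corepressor gene, with AT5G15022, AT5G02295 and AT5G02305 (chr5:4865653-4866579) had 51.2 and 48.3 CPM in stress libraries, against 61.5 and 50.1 in control libraries. The other 3 lie at chr2:18972727-18973653 (AT2G46192 and 3 snoRNA genes), chr1:6466128-6467020 (AGL65, AT1G18745 and 2 snoRNA genes) and chr1:10308011-10308938 (AT1G29465, AT1G29460 and 2 snoRNA genes). Their log2 changes lay between 0.03 and 0.04 (adjusted p from 0.67 to 0.86).

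Accessibility of these regions changed little under osmotic stress. Only regions called in all 4 libraries were members, so any region called in 1 group alone was left out before this comparison. Members took 13.1% of all counts in shared regions in both stress libraries, against 12.9% and 13.2% in control libraries, on 11.8% of the covered length in each. The difference of the means was 0.064 percentage points (two-sided exact permutation test, p = 1.0, where 2 against 2 libraries cannot go below 0.333). The median log2 change was -0.01, with quartiles of -0.08 and 0.06. The absolute change had a median of 0.07, against 0.08 for regions with 1 start and 0.10 for regions with none. The absolute log2 ratio of 1 replicate to the other had a median of 0.05 between the stress libraries and 0.08 between the control libraries. These contrast single libraries and the group change contrasts 2 with 2, so that the sizes are not like measures. By edgeR's quasi-likelihood test, with a Benjamini-Hochberg adjusted p under 0.05, 1 of 2083 members was called higher and 0 lower (0.048%), against 0.0273% of all 18340 shared regions. At an unadjusted p under 0.05 the members numbered 286 (13.7%), against 17.5% of all. DESeq2 called 12 higher and 26 lower (1.82%), where 1.73% of all shared regions were called higher and 1.11% lower (2.84% together). Without control replicate 1, edgeR called 149 members (7.15%), against 11.6% of all shared regions. Without control replicate 2 it called 187 (8.98%), against 13.3% of all, the lone control library being assumed to vary like the stress libraries.

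The 1 called member lies at chr5:17559144-17560234 and covers the starts of AT5G43720, an rRNA-processing protein gene, the noncoding gene AT5G43725 and AT5G43730, a CC-NBS-LRR disease resistance gene. It had 82.6 and 81.2 CPM in stress libraries, against 39.5 and 38.4 in control libraries, a log2 change of 1.07 ± 0.05 (SE, edgeR adjusted p = 0.0033). Both stress libraries were above both control libraries. The peaks behind these counts differed. Each stress library had called 2 peaks, 1 over the starts of AT5G43720 and AT5G43725 and 1 that reached into the start interval of AT5G43730, while each control library had called only the first. The first peak alone had 35.8 and 42.1 CPM in stress libraries, against 39.5 and 38.4 in control libraries. The second had 46.7 and 39.0 CPM in stress libraries. Cut sites outside called peaks were not counted, so the level of the second stretch in control libraries is unknown. With peaks merged only at 100 bp of overlap the 2 peaks separate, and the log2 change of the first was 0.00 (adjusted p = 0.99). With the covered length as an offset it was 0.47 (adjusted p = 0.046). RNA of the 3 genes gave adjusted p from 0.19 to 0.68 by edgeR, with AT5G43730 at 17.1 and 21.4 CPM in stress libraries, against 22.1 and 19.5 in control libraries.

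**Figure D3:**
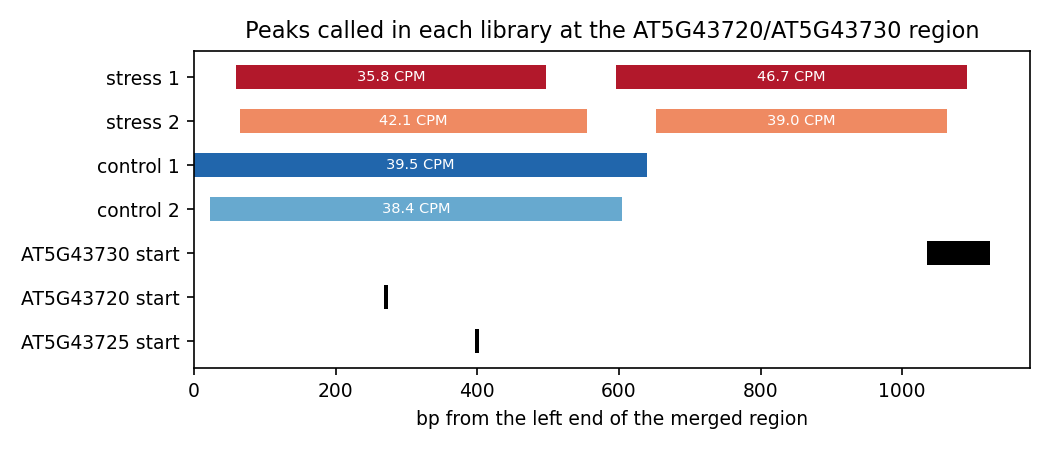
Peaks called in each library (bars, with their cut-site CPM) at the region of AT5G43720 and AT5G43730, by distance in bp from the left end of the merged region, with the start intervals of its 3 genes in black (the 2 short ones widened to be visible). Both stress libraries have a second peak beside the AT5G43730 start that neither control library has.

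Such splits were rare, since 2076 of the 2083 members were 1 peak in every library. Covered length nonetheless moved with the counts in several of the regions with the next lowest p-values, which were looked up after the values were seen and of which none passed the adjusted threshold. The region of LACS4, a long-chain acyl-CoA synthetase gene, and AT4G23860 (chr4:12408237-12409028) had 31.1 and 33.0 CPM in stress libraries, against 62.9 and 50.2 in control libraries (log2 -0.80 ± 0.11, adjusted p = 0.077). Its peaks covered 346 and 370 bp in stress libraries, against 704 and 655 bp in control libraries, and per covered kb it had 89.96 and 89.3 in stress libraries, against 89.4 and 76.6 in control libraries. The region of THIC, a thiamine biosynthesis gene, AT2G29620 and AT2G29628 (chr2:12666013-12667012) had 64.9 and 67.2 CPM in stress libraries, against 47.9 and 44.9 in control libraries, and per covered kb 82.8 and 78.6 in stress libraries, against 81.0 and 84.2 in control libraries. Of its genes, AT2G29620 was called higher in RNA, with 19.3 and 21.9 CPM in stress libraries, against 11.2 and 11.4 in control libraries (log2 0.86 ± 0.13, edgeR adjusted p = 0.045). THIC had 1.09 and 1.098 RNA CPM in stress libraries, against 0.255 and 0.365 in control libraries (adjusted p = 0.069). At AT1G72840/AT1G72850, a pair of TIR-NBS disease resistance genes with 29 bp between their starts (chr1:27413201-27414139), the covered length was alike and the level was 57.6 and 60.5 CPM per kb in stress libraries, against 42.6 and 40.4 in control libraries (log2 0.50 ± 0.07, adjusted p = 0.074). RNA of neither gene of that pair was called, with log2 changes of -0.45 and -0.26.

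RNA of the genes that start in members was called changed in few cases with all 4 libraries. Of 4279 covered genes, 3249 passed the filter on low counts. By the same test, 79 rose and 19 fell under stress, where 3.5% of all 20341 genes tested rose and 1.26% fell. Together 3.02% were called, against 4.76% of all genes and 4% of genes in regions with 1 start. At an unadjusted p under 0.05 there were 836 (25.7%), against 29.6% of all genes. The count depended on the libraries, since without stress replicate 1 or without stress replicate 2 edgeR called 0 of the covered genes (182 and 166 at an unadjusted p under 0.05, against 9.23% and 8.7% of all genes). Without control replicate 1 it called 782 higher and 770 lower, where 25.3% of all genes tested were higher and 26.8% lower. Without control replicate 2 it called 780 higher and 829 lower, where 25.6% and 24.2% of all were. DESeq2 called 147 higher and 124 lower, where 6.45% and 5.61% of all genes were. The RNA calls of single genes given here were all lost without either stress library, and kept without either control library.

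In 2 of the 1050 divergent coding pairs with both genes measured, both genes were called, and both rose in each. Among 577 measured divergent coding neighbours that start in separate regions, both genes were called in 0. The difference was not tested. AT2G21820, a seed maturation protein gene, had 12.1 and 10.8 RNA CPM in stress libraries, against 4.73 and 4.27 in control libraries (log2 1.36 ± 0.16, edgeR adjusted p = 0.034). Its neighbour AT2G21830, a C1 domain protein gene, had 12.4 and 13.9 CPM in stress libraries, against 6.26 and 6.15 in control libraries (log2 1.08 ± 0.14, adjusted p = 0.039). The stress and control libraries do not overlap for either gene. With every deposited barcode AT2G21830 had a log2 change of 0.73 and lost its call (adjusted p = 0.088). Their region (chr2:9302926-9303905, 304 bp between the starts) had 97.9 and 97.6 cut-site CPM in stress libraries, against 68.3 and 71.02 in control libraries. Its covered length was 885 to 909 bp in all libraries. The log2 change of 0.49 ± 0.06 had an adjusted p of 0.062 and was not called. In the other pair, AT1G17090, whose product is uncharacterized, had 19.8 and 20.1 RNA CPM in stress libraries, against 8.05 and 9.64 in control libraries (log2 1.16 ± 0.14, adjusted p = 0.036). HBP1, a SOUL heme-binding protein gene, had 11.1 and 10.8 CPM in stress libraries, against 4.09 and 5.11 in control libraries (log2 1.23 ± 0.17, adjusted p = 0.041). Their region (chr1:5844147-5845015) had 83.1 and 84.6 cut-site CPM in stress libraries, against 78.0 and 76.9 in control libraries (log2 0.11 ± 0.05, adjusted p = 0.33).

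In the remaining pairs with a call, only 1 of the 2 genes was called. There were 65 divergent coding pairs with exactly 1 called gene, whose absolute log2 change had a median of 1.38. The partner moved in the same direction in 34 of the 65, and its change toward that direction had a median of 0.02. The absolute change of the partner had a median of 0.25. Among the divergent coding neighbours that start in separate regions, 43 pairs had exactly 1 called gene. Their partner moved in the same direction in 27 of the 43, with a median change of 0.12 toward it. Over all 1050 pairs the genes changed in the same direction in 544 (51.8%), and Pearson's r of their log2 changes was 0.02 (Spearman's rho 0.05). For 577 divergent coding neighbours that start in separate regions with 1 start, a median of 1798 bp apart, 58.6% changed in the same direction and r was 0.20 (rho 0.23). These are correlations across gene pairs within the same 4 libraries, which all pairs share, and they carry no test. Both genes' log2 CPM were also correlated across the 9 to 12 RNA clusters large enough within each library, which share its depth. Only pairs that met a limit of 20 CPM entered, 235 to 246 sharing a region and 160 to 177 separate neighbours per library. For pairs sharing a region the median correlation was 0.13 and 0.09 in stress libraries and 0.21 and 0.11 in control libraries. Separate neighbours had 0.15 and 0.17 in stress libraries and 0.09 and 0.16 in control libraries. The spread was wide, with quartiles of -0.39 and 0.55 in stress replicate 1 for pairs sharing a region and -0.30 and 0.58 for separate neighbours. By distance, 49 of 86 pairs (56.98%) with overlapping starts changed in the same direction, as did 225 of 440 pairs (51.1%) with 0 to 150 bp between the starts, 149 of 278 (53.6%) with over 150 and up to 300 bp and 121 of 246 (49.2%) with more than 300 bp.

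**Figure D4:**
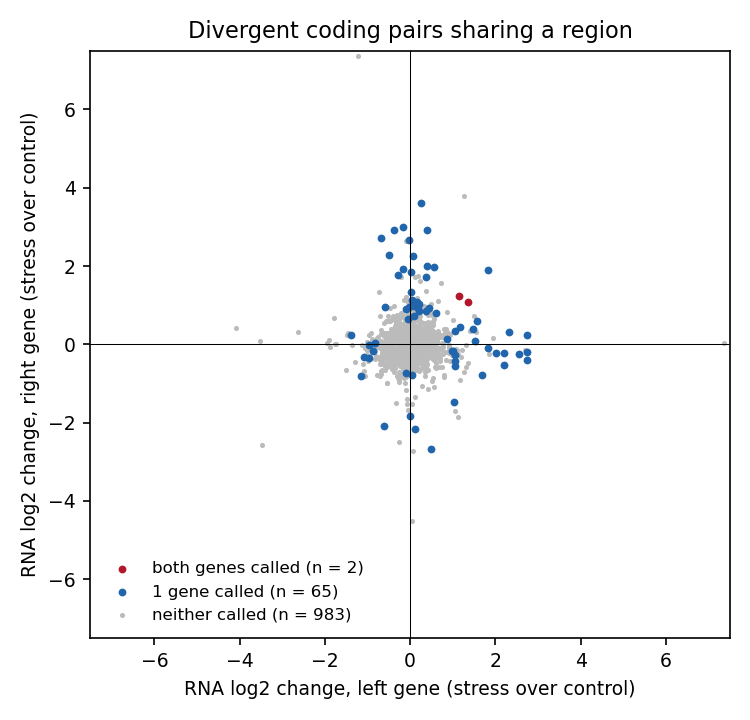
RNA log2 change (stress over control) of the right, plus-strand gene against that of the left, minus-strand gene for the 1050 divergent coding pairs that share a region. Both genes were called in 2 pairs, 1 gene in 65 pairs and neither in 983. In the 65 pairs with 1 called gene, the absolute change had a median of 1.38 for that gene and 0.25 for its partner.

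Photosynthesis genes were among those called on 1 side of a region. Of the 68 genes of light harvesting and the photosystems with a position, 12 start in members and 11 were measured. Of these 11, 4 rose (PSAO, PSBTN, PSBQA and AT1G49975) and 0 fell, with a median log2 change of 1.54, against 31 risen and 0 fallen of 62 measured in the whole list (median 1.57). DESeq2 called 8 of the 11 higher, and 45 of the whole list. PSAO, subunit O of photosystem I, had 26.7 and 25.3 RNA CPM in stress libraries, against 1.79 and 5.31 in control libraries (log2 2.74 ± 0.43, adjusted p = 0.049), and without control replicate 2 its log2 change was 3.86. Its partner AT1G08390, a recQ-mediated instability-like protein gene 137 bp away, had 7.71 and 7.37 CPM in stress libraries, against 10.34 and 9.64 in control libraries (log2 -0.40 ± 0.14, adjusted p = 0.15). Their region (chr1:2641703-2642641) had 55.2 and 56.7 cut-site CPM in stress libraries, against 51.3 and 49.0 in control libraries (log2 0.16 ± 0.06, adjusted p = 0.22). All PSAO values under stress were above those of the control, and the region and AT1G08390 were not called.

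PSBTN, subunit T of photosystem II, had 5.44 and 4.46 RNA CPM in stress libraries, against 0.766 and 0.886 in control libraries (log2 2.55 ± 0.25, adjusted p = 0.032). RBL, a WD40 repeat gene for a subunit of histone methyltransferase complexes, starts 164 bp away and had 7.96 and 7.16 CPM in stress libraries, against 9.45 and 8.60 in control libraries (log2 -0.25 ± 0.15, adjusted p = 0.33). The region of both (chr3:7376804-7377757) had 65.0 and 65.6 cut-site CPM in stress libraries, against 68.5 and 69.7 in control libraries, and so leaned the other way (log2 -0.08 ± 0.05, adjusted p = 0.39). PSBQA, a subunit of the oxygen-evolving complex, had 8.89 and 9.14 RNA CPM in stress libraries, against 1.40 and 2.14 in control libraries (log2 2.27 ± 0.23, adjusted p = 0.032). ATK1, a kinesin of the spindle, had 6.84 and 6.41 CPM in stress libraries, against 12.8 and 6.51 in control libraries (adjusted p = 0.39), and control replicate 1 stood apart. Their region (chr4:11333893-11334793) had 61.5 and 64.9 cut-site CPM in stress libraries, against 67.8 and 57.0 in control libraries. AT1G49975, annotated as subunit N of photosystem I, had 2.69 and 3.44 RNA CPM in stress libraries, against 0.255 and 0.469 in control libraries (log2 2.92 ± 0.36, edgeR adjusted p = 0.037). Its log2 change was 3.55 without control replicate 2 and 3.65 with every deposited barcode. CLPR1, of the chloroplast Clp protease, had 36.8 and 36.6 CPM in stress libraries, against 26.4 and 28.8 in control libraries (log2 0.41 ± 0.11, adjusted p = 0.10), and their region (chr1:18504199-18505146) had 47.8 and 49.1 cut-site CPM in stress libraries, against 48.5 and 49.1 in control libraries.

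**Figure D5:**
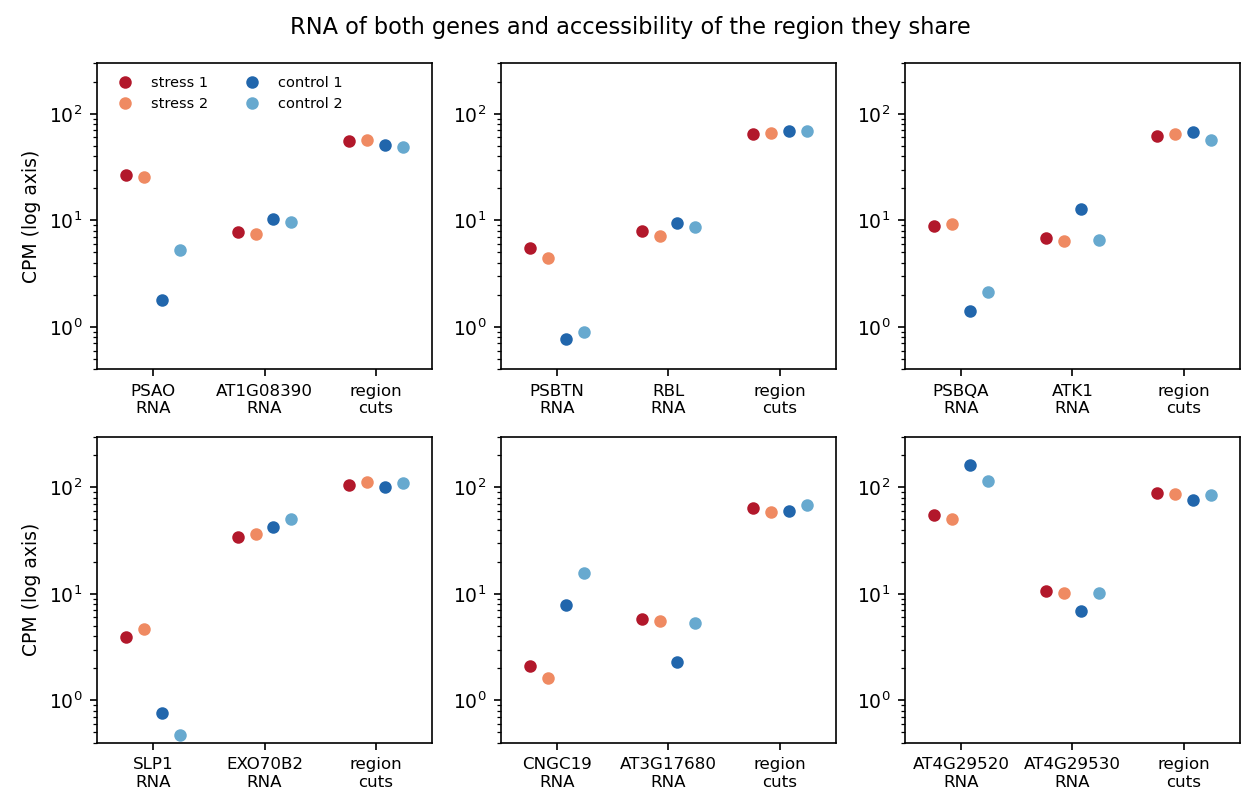
CPM (log axis) of the RNA of both genes and of the cut sites in their shared region for 6 divergent pairs, with a point for each of the 2 stress and 2 control libraries. In PSAO, PSBTN, PSBQA and SLP1 the stress points of the first gene lie above the control points, in CNGC19 and AT4G29520 below them, while the 4 points of each region lie close together.

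Other genes were looked up after the values were seen, as the largest changes among called covered genes with at least 2 CPM on average. AT3G19800, a DUF177 protein gene, had 4.05 and 4.18 RNA CPM in stress libraries, against 0.255 and 0.365 in control libraries (log2 3.62 ± 0.28, adjusted p = 0.032), and its region (chr3:6875603-6876490) changed by 0.06 ± 0.06 (log2). SBPASE, the sedoheptulose-bisphosphatase of the Calvin cycle, shares a region with a tRNA-Met gene (chr3:20708948-20709934) and had 3.57 and 4.29 RNA CPM in stress libraries, against 0.383 and 0.313 in control libraries (log2 3.53 ± 0.30, adjusted p = 0.032). SLP1, a calcineurin-like phosphatase gene, had 3.96 and 4.68 CPM in stress libraries, against 0.766 and 0.469 in control libraries (log2 2.91 ± 0.31, adjusted p = 0.032). EXO70B2, an exocyst subunit gene on its other side, had 34.4 and 36.6 CPM in stress libraries, against 42.5 and 50.02 in control libraries (log2 -0.38 ± 0.13, adjusted p = 0.14). The SLP1 region (chr1:2152126-2153108) had 105 and 112 cut-site CPM in stress libraries, against 101 and 109 in control libraries. AT5G58330, a lactate/malate dehydrogenase family gene (log2 2.74 ± 0.32), DAA1 (2.796 ± 0.24), AT3G61870 (2.67 ± 0.43) and AT3G54530 (2.27 ± 0.27) completed the 10 largest rises. AT3G61870 had 6.65 and 6.27 RNA CPM in stress libraries, against 0.383 and 1.35 in control libraries. Without control replicate 2 the log2 change was 4.06 for AT3G61870 and 3.49 for AT5G58330. RS31, a splicing factor gene 95 bp from AT3G61870, had 101 and 98.5 CPM in stress libraries, against 101 and 102 in control libraries.

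In the 8 largest falls no partner was called, and 3 partners were not measured. CNGC19, a cyclic nucleotide gated channel gene, had 2.12 and 1.63 RNA CPM in stress libraries, against 7.92 and 15.8 in control libraries (log2 -2.69 ± 0.40, adjusted p = 0.045), and without control replicate 2 its log2 change was -2.06. AT3G17680, a KIP1-like gene 239 bp away, had 5.78 and 5.60 CPM in stress libraries, against 2.299 and 5.31 in control libraries (log2 0.49 ± 0.38, adjusted p = 0.43). The region (chr3:6044272-6045148) had 64.4 and 59.3 cut-site CPM in stress libraries, against 60.5 and 67.6 in control libraries, and the groups overlap. AT4G29520, annotated as nucleophosmin, had 55.5 and 50.6 RNA CPM in stress libraries, against 162 and 115 in control libraries (log2 -1.38 ± 0.21, adjusted p = 0.045). Its partner AT4G29530 had 10.6 and 10.1 CPM in stress libraries, against 6.90 and 10.2 in control libraries (adjusted p = 0.48). ATERDJ3A, a DnaJ co-chaperone gene whose annotated 5′ end overlaps that of AT3G08960 on the other strand (log2 -1.84 ± 0.25), and TIN1, a tunicamycin induced protein gene (-1.62 ± 0.19), both tied to the endoplasmic reticulum, fell too. AT1G15330 (-2.36 ± 0.30), ACR6 (-2.16 ± 0.34), AT2G29430 (-2.08 ± 0.33) and DAR6 (-1.21 ± 0.19) were the others among the 8 largest falls. With every deposited barcode, CNGC19 (adjusted p = 0.059), ACR6 (log2 -1.51, adjusted p = 0.11) and DAR6 (adjusted p = 0.089) lost their calls. The regions of these 8 genes changed by at most 0.12 in absolute log2 terms.

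Across all 98 called covered genes, the region moved in the direction of the gene in 48 of 79 rises (60.8%) and in 11 of 19 falls (57.9%). For genes called in regions with 1 start it did so in 183 of 245 rises (74.7%) and 51 of 85 falls (60%). The median log2 change of the region was 0.04 at genes that rose in members and 0.09 at genes that rose in regions with 1 start. Of the 79 regions at rising genes in members, 14 had an unadjusted p under 0.05 by edgeR, against 82 of 245 at rising genes in regions with 1 start. At falling genes it was 1 of 19, against 20 of 85. The share was 13.7% over all members, 16.1% over all regions with 1 start and 17.5% over all shared regions. The differences between these shares were not tested.

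The lists of related genes differed in how often their members start beside another gene. Of 344 ribosomal protein genes, 88 (25.6%) start in members, against 13% of all coding genes, and 154 (44.8%) start in regions with 1 start, against 31.5%. Of the 86 measured ribosomal protein genes in members, 2 fell (AT1G07070, log2 -0.81 ± 0.11, and RPL10B, -0.74 ± 0.12) and 0 rose by edgeR, with 77 of 86 changes below 0 and a median of -0.51. The whole list of 321 measured genes had a median of -0.50, and all genes tested one of -0.01. DESeq2 called 29 of the 86 lower, and 94 of the 321. The 2 genes were named after their values were seen, as was LQY1 below. Pentatricopeptide repeat genes, which act on organelle RNA, had 73 of 279 (26.2%) in members, with 0 of 67 called by edgeR (8 at an unadjusted p under 0.05; 1 higher and 1 lower by DESeq2) and a median of -0.07. Proteasome genes had 13 of 45 (28.9%) and histone genes 12 of 52 (23.1%) in members. In regions with 1 start they had 48.9% and 48.1%. Of the genes in members, edgeR and DESeq2 called 0 in both lists, and at an unadjusted p under 0.05 by edgeR there were 2 of 13 and 1 of 12. Of 47 measured genes in the whole histone list, edgeR called 2 higher, and DESeq2 4 higher and 3 lower. Of 43 in the whole proteasome list, both called 0. tRNA genes had 188 of 625 (30.1%) in members and 86 in regions with 1 start, but only 1 of those in members passed the RNA filter. Genes of the osmotic and abscisic acid response had only 2 of 32 (6.25%) in members, against 18 (56.2%) in regions with 1 start.

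Those 2, named after their values were seen, were RAB18 and LTI65. RAB18, a dehydrin gene, had 1.63 and 1.84 RNA CPM in stress libraries, against 0.383 and 0.365 in control libraries (log2 2.21 ± 0.31, adjusted p = 0.041), and with peak counts halved before the limits on nuclei its log2 change was 3.29. PLP3b, whose 5′ end overlaps that of RAB18 on the other strand, had 44.8 and 40.4 CPM in stress libraries, against 52.1 and 48.0 in control libraries (log2 -0.23 ± 0.12, adjusted p = 0.27). Their region (chr5:26519243-26520167) had 64.8 and 66.97 cut-site CPM in stress libraries, against 62.1 and 61.2 in control libraries (log2 0.10 ± 0.05, adjusted p = 0.35). LTI65, known as a desiccation-responsive gene, had 1.66 and 0.85 RNA CPM in stress libraries, from 55 and 24 counts, against 0.255 and 0.0521 in control libraries, from 2 counts and 1 count (log2 3.42 ± 0.82, edgeR adjusted p = 0.088). DESeq2 called both RAB18 and LTI65 higher. Of 29 measured genes in the whole list, edgeR called 4 higher and 1 lower, and DESeq2 5 higher and 3 lower. Of 18 genes that the study singled out, only SNRK2.7, an osmotic stress kinase gene, starts in a member. It had 22.2 and 26.0 CPM in stress libraries, against 15.7 and 26.8 in control libraries (log2 0.16 ± 0.28, adjusted p = 0.73), and its region (chr4:18550851-18551796), shared with AT4G40011 on the same strand, had 83.0 and 80.8 cut-site CPM in stress libraries, against 81.8 and 76.3 in control libraries. The heat shock list, made from symbols and product texts, had 16 of 106 genes in members. The 12 measured had a median of -1.16, and edgeR called only LQY1 higher (log2 1.69 ± 0.22, adjusted p = 0.038) and 0 lower. The product text of LQY1 in the reference names a DnaJ/Hsp40 cysteine-rich domain superfamily protein and gives no role in heat shock. DESeq2 called 1 of the 12 higher and 1 lower. Of 79 measured in the whole list (median -0.40), edgeR called 1 higher and 3 lower, and DESeq2 1 higher and 11 lower. Only 1 member held 2 pentatricopeptide repeat genes (AT5G43820 and AT5G43822, chr5:17618418-17619262), and only 1 held 2 tRNA genes (tRNA-Asp AT1G17660 and tRNA-Val AT1G17670 beside AT1G17680, chr1:6075519-6076421).

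Within nuclear classes, 31 of the 1334 divergent coding pairs had a gene high in dividing-like nuclei and 15 had one high in trichoblast-like nuclei. Whether these counts differ from those of other genes was not tested. Clusters were made from RNA and named by markers, so that RNA values of a class chose it in part and are given as descriptions. A gene was taken as high with at least 4 times the RNA CPM of other nuclei in all 4 libraries (with 1 CPM added to each). In a dividing-like cluster (201 and 163 nuclei in stress libraries, 80 and 115 in control libraries), 31 of the 1334 divergent coding pairs had such a gene. In 0 of them were both genes so. A pair counts when either of its 2 genes is high, while the share of 0.655% is per gene, over all 32833 genes, measured or not. The region of 6 of the 31 was more accessible in that class in all 4 libraries, against 4.94% of members and 7.01% of all shared regions. Of 93 such genes in the 9199 regions with 1 start, 24 had a region more accessible in the class. The examples that follow were chosen after their values were seen. AT3G12870 had 253 and 340 RNA CPM in dividing-like nuclei of stress libraries and 383 and 360 of control libraries, where other nuclei had 3.37 to 6.24, while its divergent partner AT3G12880 had no RNA count in the class. Their region (chr3:4094834-4095695) had 80.9 and 61.3 cut-site CPM in the class in stress libraries, against 53.7 and 59.9 in control libraries, and 35.7 to 40.3 in other nuclei. In a trichoblast-like cluster (744 and 598 nuclei in stress libraries, 59 and 83 in control libraries), 15 pairs had such a gene and 1 pair had it on both sides, where 0.463% of all genes were so. The region was higher in 8 of the 15, against 6.67% of members and 7.81% of all shared regions. Of 30 such genes in regions with 1 start, 15 had a region higher in the class. There AT3G12540 had 61.8 and 62.5 RNA CPM in stress libraries and 107 and 123 in control libraries, where other nuclei had 4.20 to 7.77. PSF2, on the other side, encodes a subunit of the GINS replication complex and had 2.02 to 5.37 CPM in the class and 6.38 to 9.72 in other nuclei. No member was higher by over 2-fold in the trichoblast-like class in all libraries, and 1 was in the dividing-like class, the region of the facing genes BCCP2 and AT5G15520, with 59.6 and 63.1 CPM in the class in stress libraries, against 74.1 and 73.8 in control libraries, and 23.0 to 30.2 in other nuclei.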

How the data were processed

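Nuclei of root tips were profiled by 10x multiome sequencing in 2 stress and 2 control libraries. The authors made the deposited counts with Cell Ranger ARC 2.0.2 on TAIR10 (their notes also name Seurat 4.3.0): RNA molecules per gene and Tn5 cut sites per peak, each library with its own peak calls and with cut sites outside them not counted. Whether RNA was counted by strand is not given in the sources used here, so that values of genes with overlapping ends are uncertain. Barcodes with over 1000 and under 25000 RNA counts and over 1000 and under 100000 peak counts were kept as nuclei (18386 of 24474), following the study's limits on counts. Its limits on nucleosome signal and enrichment at starts were not applied here. Doublets were kept. Libraries shared 29 to 83 barcode sequences.

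Peaks were merged with bedtools 2.31.1. Pericentromeres were 11.5 to 17.7 Mb of chromosome 1, 1.1 to 7.2 Mb of 2, 10.3 to 17.3 Mb of 3, 1.5 to 6.3 Mb of 4 and 9.0 to 16.0 Mb of 5. Counts were summed per library and tested with edgeR 4.0.16 (R 4.3.3; TMM, filterByExpr, quasi-likelihood F-test, Benjamini-Hochberg over all regions or all genes, threshold 0.05), after tests on simulated data. DESeq2 1.42.0 was an alternative. An SE is the log2 change divided by the square root of F. CPM is the count per 1000000 in the shared regions or genes of a library, with the TMM factor (within classes, without it). RNA clusters of nuclei (2000 genes, 30 components, resolution 0.6) came from scanpy 1.11.5 with leidenalg 0.10.2 and took their names from the study's markers. Gene starts came from the files. All 32548 genes with a position there were found in RefSeq TAIR10.1, from which strands, gene types and products were taken and bases read with pysam 0.24.0. Another 285 genes without one were not assigned to regions.

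Regions were named if called, if both genes were called, if they had the most starts or the highest level, or if they held a gene the study singled out or 2 genes of a list. Others, said to be so, were chosen after their values were seen. The members and lists were chosen with earlier results of these data known.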

Additional observations from a re-analysis of the deposited data

How the results depend on the processing

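For members called in accessibility (1 of 2083), scaling by total counts, no filter and starts at least 50 bp inside the region also gave 1. The fit on covered lengths within 10% gave 1 of 1956. That was a different member, since the region of AT5G43730 was outside this limit. DESeq2 gave 38, every deposited barcode 6, peak counts halved before the limits 4, the covered length as offset 2 and merging at 100 bp of overlap 0 of 2078 (284 at an unadjusted p under 0.05). Leaving out 1 library gave 1 to 187. For covered genes called in RNA (98), DESeq2 gave 271, no filter 161, every barcode 440 and halved peak counts 163, and leaving out 1 library gave 0 to 1609. With starts 50 bp inside it was 73 of 2547. Covered genes tested were 3249 in the main fit, 3753 without a filter, 3284 with every barcode and 3226 with halved peak counts. Apart from the shares given further above, shares over all regions or all genes were not set beside these counts or those with the replicate block. Whether members moved unlike other features in these settings was therefore not tested. Leaving out 1 library, the share of counts differed by -0.091 (without control replicate 1) to 0.22 percentage points (without control replicate 2), and so changed sign. With every barcode it differed by 0.31.

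Replicate numbers do not pair the libraries in the labels, and same-numbered libraries hardly deviated together (correlation 0.04 over 18340 regions and 0.12 over 17394 genes). With the replicate block, edgeR called 2 members and 54 covered genes. Of 28 named RNA calls, 9 missed the threshold with the block (AT2G21830, HBP1, ACR6, DAR6, AT2G29620, RAB18, AT1G07070, RPL10B and LQY1), so that neither pair kept both calls. With every barcode 4 missed it (AT2G21830, CNGC19, ACR6 and DAR6), as did all 28 without either stress library. All 28 held under DESeq2, without a filter, with halved peak counts and without either control library. None of them changed direction. The fit on similar covered lengths left out the region of AT5G43730. Where that region was tested, its accessibility call was lost only with merging at 100 bp. The causes were not tested. Depth was lowest in control replicate 1, with 11192073 peak counts.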
